A study of Homo sapiens with 14 samples.

Results

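This comparison covers HCT116 colon carcinoma cells after 12 h of 5-Ph-IAA, set against the same cells given DMSO. Its members are 4 of the 14 libraries of the series, chosen by their titles: 2 with 5-Ph-IAA for 12 h, and 2 with DMSO that do not carry the word control. All of these cells have the genotype osTIR1(F74G) SAF-A-mAID-Halo. They hold a plant auxin receptor with an altered binding pocket, and SAF-A, the protein of the HNRNPU gene, fused to a degron and a Halo tag, so the DMSO cells carry the tagged protein too. The 2 libraries with 3 h of 5-Ph-IAA from the same time course were fitted with them and serve as an earlier time point. The labels do not say whether replicates came from separate cultures or whether the line is 1 clone, and the p-values then measure only the spread between these libraries.

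5-Ph-IAA is an auxin analogue that joins the degron to a ubiquitin ligase, after which the tagged protein is broken down by the proteasome. SAF-A, also called hnRNP U, binds nascent RNA and AT-rich scaffold attachment DNA, and is known as a major protein of the nuclear matrix. It is also known to take part in pre-mRNA splicing, in mitosis and in holding chromatin-associated RNA in place. The mRNA does not report the protein level, and no protein was measured in the data used here.

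The 12 h libraries held 29.6 and 3.54 M expected counts (M for 1e6), against 33.7 and 34.1 M in DMSO, so replicate 2 at 12 h was far shallower than the rest and every effect below was looked at in each library. Replicates were not copies of each other: chi-square statistics of their counts, divided by the degrees of freedom, were 4.04 for the 12 h pair and 14.8 for the DMSO pair, where counting error gives values near 1. This statistic grows with depth, so the 2 values do not rank the pairs by how well their replicates match. Levels are counts per 1e6 counts of a library (CPM) after TMM scaling, and differences are log2 fold changes ± SE from edgeR's quasi-likelihood test (n = 2 libraries per group). Calls have a Benjamini-Hochberg adjusted p under 0.05 over the 19049 genes tested, of 78686 gene identifiers in the tables. Because these are bulk RNA samples, fewer cells of a type and less RNA per cell cannot be told apart. Epithelial keratins were high in all 4 libraries, with KRT19 at 2013 to 2058 TPM at 12 h and 1708 to 1710 TPM in DMSO, and KRT8 at 1956 to 1997 TPM at 12 h and 1719 to 1792 TPM in DMSO. The summed level of the 20 epithelial and colon markers was 5481 to 5512 TPM at 12 h and 4613 to 4665 TPM in DMSO, while CDX1, CEACAM5, CEACAM6, MUC2 and TFF3 were at 0 in all 6 libraries of the time course. Among 22 markers of other cell types, 16 stayed under 1 TPM in all 6 libraries, and PTPRC, CD3E, CDH5 and ALB were at 0 in the compared libraries. Their summed level, mostly from TUBB3, was 87.6 to 92.8 TPM at 12 h and 74.8 to 89.7 TPM in DMSO.

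HNRNPU itself, on chromosome 1, 244840638 to 244864560 of GRCh38 on the minus strand, had 671 and 636 CPM at 12 h, against 509 and 544 CPM in DMSO. Both 12 h libraries were above both DMSO libraries (log2 0.31 ± 0.063, adjusted p = 0.00744), while at 3 h the levels were 524 and 547 CPM. The call was lost without replicate 1 at 12 h, which leaves only the shallow library (0.27, adjusted p = 0.0723), with the same direction. HNRNPU is a GC-poor transcript, and with the GC correction described below its difference was larger (0.65, adjusted p = 0.00106).

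At 12 h, 2163 genes (11.4% of those tested) differed from DMSO, 645 of them higher (3.39%) and 1518 lower (7.97%). Most changes were small, with a median of 0.52 among raised genes and -0.55 among lowered genes on the log2 scale, and 73 raised and 150 lowered genes changed at least 2-fold. In 2161 of the called genes the 2 groups of libraries did not overlap, where 50.8% of all tested genes do not overlap. The deep and the shallow 12 h library thus shared the direction in nearly all called genes. The calls were made from these same libraries, so this is no separate check of them. Fitting the shallow library alone (without replicate 1 at 12 h) left 206 raised and 647 lowered genes, and the deep library alone (without replicate 2) gave 531 raised and 1223 lowered. Leaving out replicate 2 of DMSO gave 466 raised and 952 lowered. At 3 h, 13 genes (0.0682%) differed from the same DMSO libraries. The direct contrast of 12 h with 3 h called 448 genes higher (2.35%) and 1103 lower (5.79%) at 12 h, 8.14% in all. Of the 2163 genes called against DMSO, 1238 passed there in the same direction. Both contrasts use the same 12 h libraries, so this overlap is no separate check of the calls.

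**Figure D1:**
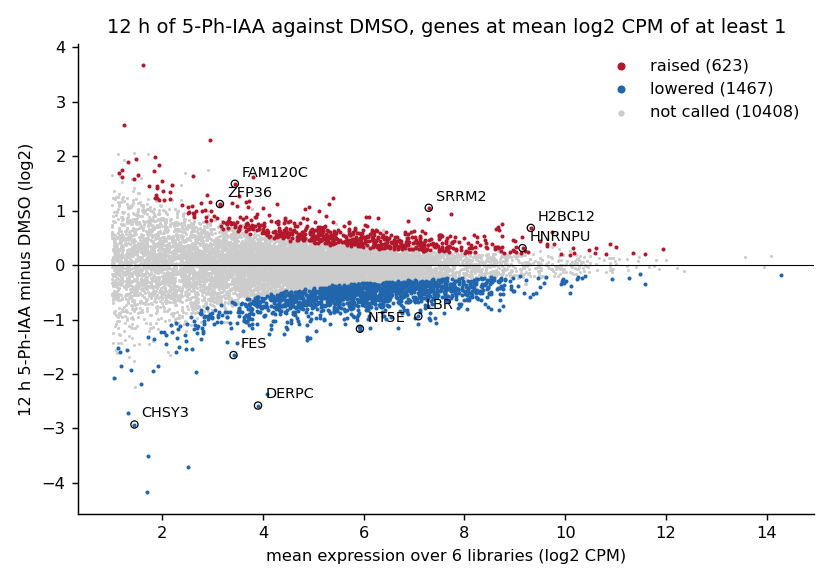
Log2 difference of 12 h of 5-Ph-IAA from DMSO (vertical axis) against mean expression over the 6 time-course libraries (horizontal axis, log2 CPM) for genes with a mean log2 CPM of at least 1. Red points are the 623 raised and blue points the 1467 lowered genes in this range, and lowered genes form a dense band of small changes below the line at 0.

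Raised and lowered genes differed in base composition. The lowered genes had a median GC content of 39.3% over the longest transcript and the raised genes 54.0%, against 49.3% in genes that were not called. Among the 2419 genes in the lowest of 5 equal classes by GC, between 30.2% and 40.8%, 935 were lowered (38.7%) and 14 raised. In the top class, from 57.8% to 73.9%, 25 were lowered and 177 raised (7.32%). The median log2 difference from DMSO in the lowest class was -0.35 in replicate 1 and -0.37 in the shallow replicate 2 at 12 h, and in the top class it was 0.12 and 0.15. The 2 libraries at 12 h thus lay close together along the whole GC range, with the shallow one not apart from the deep one. At 3 h the medians were -0.071 and -0.093 in the lowest class and 0.060 and 0.029 in the top class. Replicate 1 minus replicate 2 of DMSO, which carries no treatment, gave -0.052 in the lowest class and 0.052 in the top class. In the separate set without Nutlin, 3 h of 5-Ph-IAA gave medians of 0.023 and 0.016 in the lowest class and -0.025 and -0.019 in the top class, while replicate 1 minus replicate 2 of its own DMSO controls gave -0.093 and 0.1004.

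**Figure D2:**
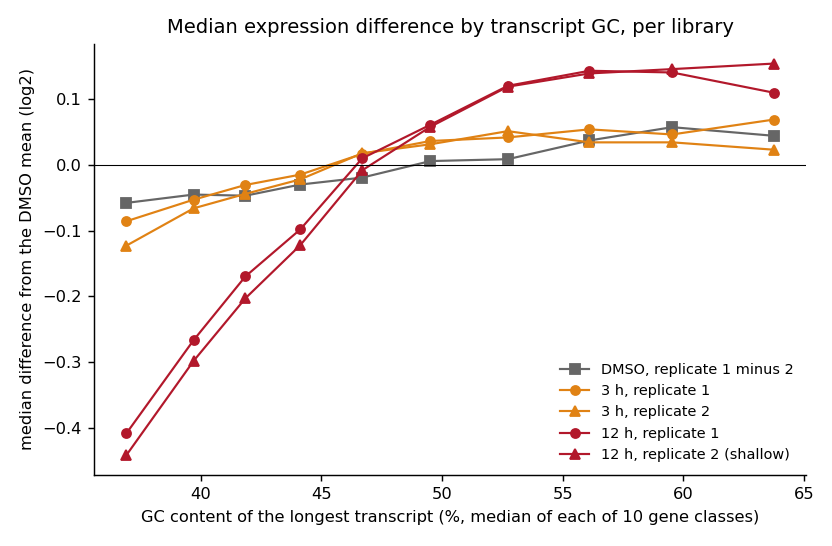
Median log2 difference from the mean of the DMSO libraries (vertical axis) in 10 classes of genes by GC content of the longest transcript (horizontal axis, %), with each library of 5-Ph-IAA as a line and, in grey, replicate 1 minus replicate 2 of DMSO. Both 12 h lines run together from -0.41 and -0.44 at the GC-poor end to 0.11 and 0.15 at the GC-rich end, while the 3 h and DMSO lines stay nearer 0.

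The composition of the mature transcript tracked the difference, and that of the promoter did so less. Across 8394 genes with all features, Spearman's rho with the log2 difference was 0.54 for the GC content of the whole transcript, 0.49 for the coding sequence, 0.47 for the last codon position (GC3), 0.41 for the other codon positions and 0.50 for the 3′ untranslated region. It was 0.10 for the 5′ untranslated region, 0.081 for the promoter and -0.14 for the length of the gene on the genome. These are descriptions across genes, which are not independent and share their 6 libraries. Genes were also ranked by GC3 and by 3′ GC and split into low, middle and high classes of like size. Genes low in both had a median of -0.32 with 37.3% lowered, and genes high in both had a median of 0.13 with 0.616% lowered. With low GC3 and middle 3′ GC the median was -0.16, and with middle GC3 and low 3′ GC it was -0.15. The part of library preparation in this pattern was not tested.

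The coding sequences of called genes show what this composition looks like. The 5 windows of 90 coding bases given here run from base 301 to base 390 of the annotated coding sequence (GENCODE 29 transcripts on GRCh38), with G or C at the last base of a codon in capitals. They were chosen, after the values were known, as the genes named here that were called with and without the GC correction and lay at or next to the lowest or highest GC3 in their direction. TTK (chromosome 6) was lowered and GC3-poor, SLC7A5 (chromosome 16) and FASN (chromosome 17) were raised and GC3-rich, and AREG (chromosome 4, raised) and KCTD12 (chromosome 13, lowered) go against the trend.
TTK: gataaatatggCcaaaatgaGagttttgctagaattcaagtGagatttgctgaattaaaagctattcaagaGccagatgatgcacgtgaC
SLC7A5: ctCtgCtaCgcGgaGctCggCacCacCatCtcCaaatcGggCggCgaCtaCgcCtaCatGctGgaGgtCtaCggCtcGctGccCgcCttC
FASN: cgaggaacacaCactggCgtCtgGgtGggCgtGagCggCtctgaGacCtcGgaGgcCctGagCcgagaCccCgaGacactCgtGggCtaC
AREG: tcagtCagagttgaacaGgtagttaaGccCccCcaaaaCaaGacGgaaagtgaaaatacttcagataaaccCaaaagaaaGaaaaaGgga
KCTD12: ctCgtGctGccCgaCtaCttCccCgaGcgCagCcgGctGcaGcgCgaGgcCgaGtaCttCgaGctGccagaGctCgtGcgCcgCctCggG
Of the 30 codons in each window, 5 end in G or C in TTK, 29 in SLC7A5, 23 in FASN, 11 in AREG and 29 in KCTD12. Over the whole coding sequence GC3 was 29.99% in TTK, 90.3% in SLC7A5, 85.9% in FASN, 38.3% in AREG and 92.3% in KCTD12. KCTD12 pairs its GC-rich coding sequence with a 3′ region of 36.8% GC.

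A correction that removes each library's smooth trend with transcript GC left 794 called genes (4.17%), 349 raised (1.83%) and 445 lowered (2.34%). The raised share of calls was 44.0% with this correction and 29.8% without it. Both fits called 620 genes in the same direction, 233 raised and 387 lowered, and 76 genes called without the correction had the other sign with it. For most genes described below the value or the call with this correction is therefore given as well, and a gene said to hold with GC correction was called in the same direction in both fits. Of the 129 named genes that were called, 58 stayed called when any 1 of the 4 libraries was left out, and 35 of these also held with GC correction.

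Among the genes with the largest changes, lowered protein-coding genes of low expression stood beside raised genes of uncertain counting. CHSY3, a chondroitin sulfate synthase, had 0.568 and 1.1 CPM at 12 h, against 4.9 and 5.49 CPM in DMSO (log2 -2.93 ± 0.47, adjusted p = 0.00232), with no overlap between the groups. It held with GC correction but not in the shallow 12 h library alone (-2.24, adjusted p = 0.0708). FES, a cytoplasmic tyrosine kinase, had 4.24 and 6.85 CPM at 12 h, against 14.7 and 16.2 CPM in DMSO (log2 -1.65 ± 0.23, adjusted p = 0.00114), and it held with GC correction and in each leave-one-out fit. ZNF860, a zinc finger gene, had 2.94 and 2.47 against 7.02 and 9.41 CPM and DTWD2, a tRNA-modifying enzyme, 3.27 and 2.74 against 8.22 and 10.1 CPM, at 12 h and in DMSO. Both fell (log2 -1.55 ± 0.28, adjusted p = 0.0044 and log2 -1.55 ± 0.26, adjusted p = 0.00287) and both held in each leave-one-out fit and with GC correction. HECTD2, a ubiquitin ligase gene, fell by 1.505 on the log2 scale and stayed called whichever library was left out, but was not called with GC correction (-0.98, adjusted p = 0.0819). KCTD12, an auxiliary subunit of GABA-B receptors, had 0.835 and 1.1 CPM at 12 h, against 3.2 and 3.39 CPM in DMSO (log2 -1.86 ± 0.45, adjusted p = 0.0194), and lost its call without replicate 1 at 12 h or without replicate 2 of DMSO. The other lowered genes of this kind were SLC44A5, KLF12, PAG1, NME5 and NUDT7, with log2 changes from -1.51 to -2.17. Each of these 5 lost its call in 2 to 4 of the leave-one-out fits and with GC correction. Among raised protein-coding genes, FAM120C had 15.8 and 24.1 CPM at 12 h, against 5.59 and 7.94 CPM in DMSO (log2 1.49 ± 0.24, adjusted p = 0.00238), and held in each leave-one-out fit and with GC correction. ALPK3 and FERMT3 rose by 1.69 and 1.65 on the log2 scale, and neither was called with GC correction. ALPK3 lost its call in all 4 leave-one-out fits, and FERMT3 without replicate 1 at 12 h or replicate 1 of DMSO.

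Many of the largest changes fell on loci whose reads cannot be placed with certainty, since near-identical or overlapping genes share them and the expected counts were fractional. The raised pseudogenes GTF2IP4, GUSBP13 and SORD2P had log2 changes of 3.67, 1.99 and 1.64, and GTF2IP4 had a count of 0 in replicate 2 of DMSO. The value of GTF2IP4 rests on single libraries, being 2.69 without that library, and its call was lost without replicate 1 at 12 h (adjusted p = 0.104). SORD2P was also lost there, at 1.096, and GUSBP13 kept its call in each fit. The raised genes LY6G5B (2.58), GCOM1 (1.84), P2RX5-TAX1BP3 (1.90), RPL36A-HNRNPH2 (1.63) and LRRC37A3 (1.478) overlap or resemble other genes. All 5 lost their calls in 1 to 3 of the leave-one-out fits, where GCOM1 ranged from 1.18 to 3.23 and RPL36A-HNRNPH2 from 0.96 to 2.91. In addition, P2RX5-TAX1BP3 and RPL36A-HNRNPH2 were not called with GC correction. FAM88E, annotated as a lincRNA, fell by 1.93 on the log2 scale and lost its call in 2 of those fits and with GC correction. The lowered SMG1P3 was at 0 in replicate 1 and at 6.85 CPM in replicate 2 at 12 h, against 11.4 and 16.1 CPM in DMSO, so its log2 change of -3.71 rests on 1 library, and it was -1.01 without replicate 1. RGPD5, one of a family of RANBP2-like copies, had 4.31 and 5.75 CPM at 12 h, against 18.1 and 29.5 CPM in DMSO (log2 -2.37 ± 0.27, adjusted p = 0.000434), and held in every leave-one-out fit and with GC correction, with the same limit on its counting. DERPC had 3.57 and 9.31 CPM at 12 h, against 26.6 and 31.2 CPM in DMSO (log2 -2.58 ± 0.36, adjusted p = 0.00115), with fractional counts, and lost its call without replicate 1 at 12 h (-1.63, adjusted p = 0.0531). Noncoding genes beside coding ones were also raised, among them CDC20-DT (7.01 and 3.29 against 1.88 and 0.944 CPM at 12 h and in DMSO), ACAD9-DT (5.58 and 4.38 against 1.26 and 2.12 CPM) and PRR7-AS1 (7.15 and 6.03 against 2.93 and 1.68 CPM), each at a few CPM. The kit keeps strand, but whether the counting used it is not given in the sources used here. Each of these 3 lost its call in 2 of the leave-one-out fits, and the raised pseudogene YBX1P1 in all 4. Of 319 tested genes whose symbols end in -DT, 5 were raised and 1 lowered, and of 658 ending in -AS, 8 were raised and 4 lowered, against 585 raised (4.405%) and 1452 lowered (10.9%) of 13281 protein-coding genes. Of 68 genes whose symbols join 2 tested genes, 9 were raised (13.2%) and 3 lowered (4.41%), against 3.39% and 7.97% of all genes tested, and their reads are shared with the genes they join.

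Among 34 genes of the nuclear matrix and lamina, the structures with which SAF-A is associated, 4 rose (11.8%) and 7 fell (20.6%), against 3.39% and 7.97% of all genes tested. With GC correction 3 rose and 2 fell, against 1.83% and 2.34% of all genes. The list had a median of 0.079 against -0.0031 over all genes tested. LBR, the lamin B receptor that ties heterochromatin to the inner nuclear membrane and also works as a sterol reductase, had 95.7 and 86 CPM at 12 h, against 171 and 181 CPM in DMSO (log2 -0.94 ± 0.084, adjusted p = 0.000171). Its level was lower in both 12 h libraries than in any of the other 4 libraries of the time course, and it held with GC correction (-0.60, adjusted p = 0.00254) and whichever library was left out. TMPO, which encodes lamina-associated polypeptide 2, had 296 and 288 CPM at 12 h, against 404 and 419 CPM in DMSO (log2 -0.49 ± 0.063, adjusted p = 0.000754) and also held (-0.31, adjusted p = 0.0149). AKAP8L, a nuclear scaffold protein, had 90.4 and 86.8 CPM at 12 h, against 57.1 and 51.4 CPM in DMSO (log2 0.71 ± 0.096, adjusted p = 0.000957), higher in both 12 h libraries, and held with GC correction (0.57, adjusted p = 0.00691). The lamin genes themselves did not pass the test, with log2 differences of 0.16 for LMNA (adjusted p = 0.106) and 0.47 for LMNB1 (adjusted p = 0.055). The scaffold attachment factors related to SAF-A in name gave 0.41 for SAFB (adjusted p = 0.0551) and a raised SAFB2 at 0.64 (adjusted p = 0.0329). MATR3, matrin 3, is listed under 2 overlapping identifiers. One had 440.1 and 385 CPM at 12 h, against 579 and 571 CPM in DMSO, and the other 85.4 and 127 CPM at 12 h, against 52.0 and 60.3 CPM in DMSO. The first fell by 0.47 and the second rose by 0.87 on the log2 scale. With GC correction the fall was not called (-0.12, adjusted p = 0.367), while the rise was (1.13, adjusted p = 0.00313). How reads were split between the 2 identifiers was not tested.

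In the hnRNP family, to which SAF-A belongs, 5 of 30 genes rose (16.7%, against 3.39% of all genes tested) and 4 fell (13.3%, against 7.97%), HNRNPU among the raised. HNRNPH1, a splicing regulator, had 314 and 281 CPM at 12 h, against 419 and 448 CPM in DMSO (log2 -0.54 ± 0.075, adjusted p = 0.00108), and HNRNPDL had 190.0 and 176 CPM at 12 h, against 259.6 and 223 CPM in DMSO (log2 -0.39 ± 0.086, adjusted p = 0.012). Neither held with GC correction, where HNRNPH1 stood at -0.13, adjusted p = 0.32, and HNRNPDL also lost its call in 3 of 4 leave-one-out fits. KHSRP, which binds AU-rich elements and promotes mRNA decay, had 127 and 173 CPM at 12 h, against 92.6 and 101 CPM in DMSO (log2 0.60 ± 0.12, adjusted p = 0.00799), and was not called with GC correction (0.44, adjusted p = 0.0635). With GC correction the family counted 4 raised and 1 lowered.

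Among 36 proteins of nuclear speckles, the bodies that store and recycle splicing factors, and SR proteins, 5 rose (13.9%, against 3.39% of all genes tested) and 6 fell (16.7%, against 7.97%). With GC correction, 6 rose and 1 fell. SRRM2, the large scaffold protein of speckles, on chromosome 16, 2752329 to 2772538, had 246 and 288 CPM at 12 h, against 113 and 142 CPM in DMSO, and 105 and 123 CPM at 3 h. It was higher in both 12 h libraries than in the other 4 (log2 1.05 ± 0.12, adjusted p = 0.000443), held with GC correction (0.89, adjusted p = 0.00356), and ranged from 0.92 to 1.24 when each library was left out in turn. Other speckle scaffolds did not pass, with 0.22 for SON (adjusted p = 0.0792) and -0.00055 for SRRM1 (adjusted p = 0.999). THRAP3, a speckle protein of mRNA splicing and export, had 326 and 316 CPM at 12 h, against 242 and 245 CPM in DMSO (log2 0.40 ± 0.066, adjusted p = 0.00241) and held with GC correction (0.37, adjusted p = 0.00961). The SR proteins SRSF3, with 379 and 376 CPM at 12 h, against 479 and 491 CPM in DMSO (log2 -0.36 ± 0.061, adjusted p = 0.00285), and SRSF6, with 214 and 235 against 291 and 344 CPM (log2 -0.51 ± 0.087, adjusted p = 0.00308), fell in the fit without correction only. SRSF6 also lost its call without replicate 1 at 12 h (adjusted p = 0.0523).

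In the core spliceosome 7 of 41 genes rose (17.1%, against 3.39% of all genes tested) and 4 fell (9.76%, against 7.97%). With GC correction 4 rose and 2 fell. PRPF8, the protein at the catalytic centre of the spliceosome, had 525 and 576 CPM at 12 h, against 325 and 351 CPM in DMSO (log2 0.70 ± 0.081, adjusted p = 0.000449). SNRNP200, the helicase that unwinds U4 from U6, had 356 and 383 CPM at 12 h, against 263 and 288 CPM in DMSO (log2 0.42 ± 0.072, adjusted p = 0.00329). Both rose in both 12 h libraries and held with GC correction, at 0.58 and 0.30. SF3B1, which binds the branch site, had 619 and 619 CPM at 12 h, against 797 and 828 CPM in DMSO (log2 -0.39 ± 0.056, adjusted p = 0.00123). LSM5 of the U6 ring had 63.7 and 56.4 against 80.2 and 92.3 CPM (log2 -0.50 ± 0.11, adjusted p = 0.0106). These 2 were not called with GC correction (-0.20, adjusted p = 0.0682 for SF3B1), and LSM5 lost its call without replicate 2 at 12 h or of DMSO.

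Of 18 long noncoding RNAs tested, 2 rose (11.1%, against 3.39% of all genes tested) and 1 fell (5.56%, against 7.97%). With GC correction 3 rose, against 1.83% of all genes tested. Their list was labelled nuclear, but where its members, DANCR, OIP5-AS1 and NORAD among them, lie in the cell was not tested. The counts are therefore not a result about nuclear RNAs as such. NEAT1, the RNA scaffold of paraspeckles, had 270.0 and 272 CPM at 12 h, against 191 and 178 CPM in DMSO (log2 0.55 ± 0.086, adjusted p = 0.00187), and 119 and 139 CPM at 3 h. It was thus above DMSO at 12 h and below it at 3 h, although the 3 h difference of -0.52 did not pass the test (adjusted p = 0.0672), and the 12 h value held with GC correction (0.64, adjusted p = 0.00254). DANCR had 118 and 129 against 94.7 and 97.4 CPM (log2 0.35 ± 0.086, adjusted p = 0.0198) and OIP5-AS1 74.4 and 74.5 against 109.6 and 115 CPM (log2 -0.59 ± 0.088, adjusted p = 0.00145), neither called with GC correction, and DANCR lost its call without either 12 h library. MALAT1, the abundant RNA of nuclear speckles, differed by 0.12 and did not pass (adjusted p = 0.305). Among 25 snoRNA host genes 1 rose (4.0%, against 3.39%) and 3 fell (12.0%, against 7.97%), and these 4 were not called with GC correction. TAF1D, with 167 and 151 against 239 and 242 CPM (log2 -0.59 ± 0.076, adjusted p = 0.000779), was the only one of the 4 that kept its call in all leave-one-out fits. EEF2 (0.21), GAS5 (-0.29) and SNHG6 (-0.30) lost theirs in 3 or 4 of them.

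**Figure D3:**
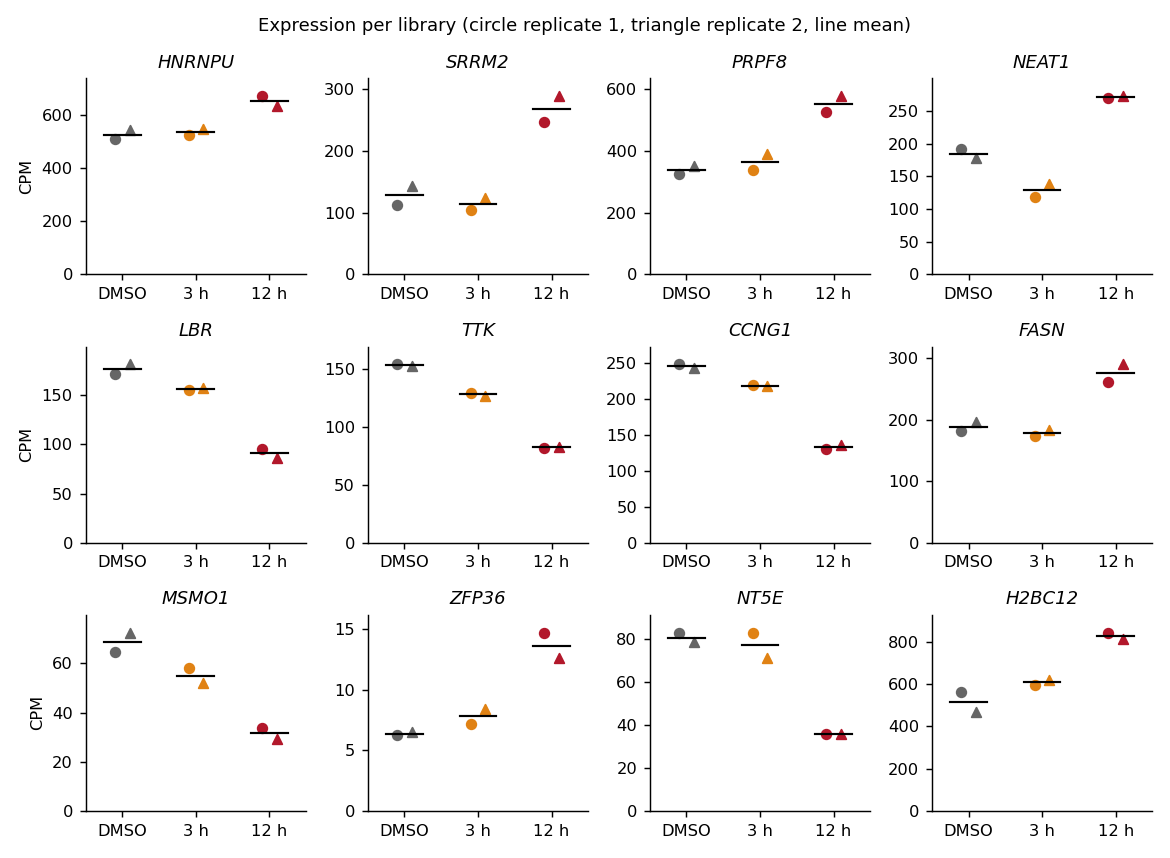
CPM (vertical axes, starting at 0) of 12 named genes in each library of the time course, from DMSO to 3 h and 12 h of 5-Ph-IAA, with circles for replicate 1, triangles for replicate 2 and a line for the mean. In each panel the 12 h pair lies apart from the DMSO pair, and SRRM2, for example, stands at 246 and 288 CPM against 113 and 142 CPM.

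Cell cycle genes were among the groups with the most lowered members. Of 51 genes of G2 and mitosis, 18 fell (35.3%, against 7.97% of all genes tested) and 5 rose (9.80%, against 3.39%). The median was -0.17, with -0.18 in replicate 1 and -0.16 in the shallow replicate 2. The group is GC-poor, with a median of 42.1%, and with GC correction 3 fell and 3 rose with a median of -0.041. TTK, the spindle checkpoint kinase MPS1, had 82 and 82.5 CPM at 12 h, against 154 and 153 CPM in DMSO (log2 -0.90 ± 0.08, adjusted p = 0.000171), and held with GC correction (-0.70, adjusted p = 0.00222). ASPM, a spindle pole protein, had 80 and 91.5 CPM at 12 h, against 135 and 163 CPM in DMSO (log2 -0.82 ± 0.11, adjusted p = 0.000779). NCAPG, a condensin subunit, had 177 and 156 CPM at 12 h, against 245 and 267 CPM in DMSO (log2 -0.61 ± 0.081, adjusted p = 0.000939). Both held with GC correction as well, at -0.44 and -0.32. CDK1, the mitotic cyclin-dependent kinase, had 240.4 and 241 CPM at 12 h, against 344 and 337 CPM in DMSO (log2 -0.50 ± 0.067, adjusted p = 0.000932), but was not called with GC correction (-0.12, adjusted p = 0.347). All 4 kept their calls whichever library was left out.

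Genes of DNA replication and of the G1/S transition showed fewer calls. In the S phase list 4 of 47 fell (8.51%, against 7.97% of all genes tested) and 3 rose (6.38%, against 3.39%). POLE2, a subunit of DNA polymerase epsilon, had 23.4 and 24.9 CPM at 12 h, against 40.9 and 49.3 CPM in DMSO (log2 -0.92 ± 0.13, adjusted p = 0.00125), while POLE, the catalytic subunit, had 129 and 123 CPM at 12 h, against 92.5 and 96 CPM in DMSO (log2 0.42 ± 0.082, adjusted p = 0.00617), so the subunits went opposite ways. POLE2 held with GC correction (-0.82, adjusted p = 0.0061) and in each leave-one-out fit, and POLE held in neither (0.26, adjusted p = 0.0938 with GC correction, and 0.38, adjusted p = 0.0755 without replicate 1 at 12 h). CDC7 and RFC3 fell by 0.54 and 0.39 on the log2 scale, without holding in the shallow 12 h library or with GC correction. Of 27 G1/S genes 4 fell (14.8%), and 1 with GC correction. RB1, the retinoblastoma gene, had 33.2 and 32.6 CPM at 12 h, against 51.6 and 69.2 CPM in DMSO (log2 -0.87 ± 0.15, adjusted p = 0.00292), and CDKN1B, which encodes p27, had 36.8 and 31.8 CPM at 12 h, against 48.8 and 45.2 CPM in DMSO (log2 -0.42 ± 0.12, adjusted p = 0.036). RB1 was not called with GC correction, and CDKN1B was, but each lost its call without replicate 1 at 12 h, and CDKN1B in the other 3 leave-one-out fits too. SKP2 (-0.31) and CCNE2 (-0.51) fell as well, with calls lost in 4 and 3 of the leave-one-out fits.

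Of 47 replication-dependent histone genes tested, whose mRNAs end in a stem-loop, 2 rose (4.26%, against 3.39% of all genes tested) and 6 fell (12.8%, against 7.97%). With GC correction 1 rose and 9 fell, against 1.83% and 2.34% of all genes tested. H4C12 had 225 and 249 CPM at 12 h, against 333 and 337 CPM in DMSO (log2 -0.51 ± 0.073, adjusted p = 0.00127), H3C4 had 119.9 and 138 against 190.4 and 195 CPM (log2 -0.59 ± 0.091, adjusted p = 0.00176) and H2AC7 had 239 and 252 against 351 and 313 CPM (log2 -0.44 ± 0.075, adjusted p = 0.00319). These 3 GC-rich genes fell in both 12 h libraries, against the trend with base composition, and all held with GC correction at -0.65, -0.74 and -0.58. H2BC12 had 844 and 814 CPM at 12 h, against 565 and 468 CPM in DMSO (log2 0.68 ± 0.08, adjusted p = 0.000467), the opposite direction, and held as well. Histone genes are near-identical copies, so reads may be split between them, and their values are uncertain.

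Among 38 targets of p53, 10 fell (26.3%, against 7.97% of all genes tested) and 1 rose (2.63%, against 3.39%). With GC correction 4 fell, against 2.34% of all genes, and 0 rose in edgeR, and the median was -0.16 in both fits. CCNG1, cyclin G1, had 130.2 and 137 CPM at 12 h, against 248 and 243 CPM in DMSO (log2 -0.89 ± 0.072, adjusted p = 0.000171). KITLG, the ligand of the KIT receptor, had 316 and 333 CPM at 12 h, against 538 and 547 CPM in DMSO (log2 -0.75 ± 0.063, adjusted p = 0.000171). Both held with GC correction (-0.57 and -0.38) and whichever library was left out. RRM2B, a ribonucleotide reductase subunit, had 103 and 95.6 CPM at 12 h, against 148 and 162 CPM in DMSO (log2 -0.63 ± 0.086, adjusted p = 0.000988). MDM2, the ubiquitin ligase of p53, had 220.4 and 229.6 CPM at 12 h, against 293 and 296 CPM in DMSO (log2 -0.39 ± 0.066, adjusted p = 0.00291). Neither was called with GC correction (-0.23, adjusted p = 0.132 and -0.23, adjusted p = 0.0759). CDKN1A, which encodes p21, differed by -0.0054 and did not pass (adjusted p = 0.98).

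Of 34 genes of cholesterol and fatty acid synthesis that SREBP factors control, 8 fell (23.5%, against 7.97% of all genes tested) and 3 rose (8.82%, against 3.39%). With GC correction 3 fell and 1 rose. The sterol enzymes MSMO1, with 33.8 and 29.3 CPM at 12 h, against 64.6 and 72.5 CPM in DMSO (log2 -1.08 ± 0.12, adjusted p = 0.000372), and IDI1, with 55.9 and 45.5 CPM at 12 h, against 78.7 and 82.5 CPM in DMSO (log2 -0.63 ± 0.11, adjusted p = 0.00345), fell and held with GC correction (-0.76 and -0.44). STARD4, a sterol carrier, had 20.6 and 22.5 CPM at 12 h, against 35.5 and 34.4 CPM in DMSO (log2 -0.72 ± 0.13, adjusted p = 0.00364), without holding with GC correction or in the shallow 12 h library alone. FASN, the fatty acid synthase, went the other way with 262 and 289.6 CPM at 12 h, against 182 and 195 CPM in DMSO (log2 0.54 ± 0.079, adjusted p = 0.00135), held with GC correction (0.41, adjusted p = 0.0193), and stood at 174 and 184 CPM at 3 h. Among 35 hypoxia and glycolysis genes 5 fell (14.3%), and 2 with GC correction. BNIP3, a mitophagy receptor, had 38 and 32.6 CPM at 12 h, against 53.8 and 46.3 CPM in DMSO (log2 -0.47 ± 0.13, adjusted p = 0.0336), and held with GC correction but lost its call in 3 leave-one-out fits. BNIP3L (-0.55), EGLN1 (-0.39) and P4HA1 (-0.40) did not hold with GC correction.

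Mitochondrially encoded genes had the highest median of the lists, 0.47, with 12 of 15 above 0. Of the 15, 4 were raised (26.7%, against 3.39% of all genes tested), as many as with GC correction (against 1.83%). MT-CO1, of complex IV, had 1047 and 1281 CPM at 12 h, against 670.1 and 846 CPM in DMSO (log2 0.61 ± 0.11, adjusted p = 0.00345). MT-CYB, of complex III, had 89.9 and 111 CPM at 12 h, against 50.9 and 56 CPM in DMSO (log2 0.88 ± 0.11, adjusted p = 0.000754). MT-ND4 had 107 and 86.6 CPM at 12 h, against 55.4 and 51.5 CPM in DMSO (log2 0.88 ± 0.11, adjusted p = 0.000632), and MT-ND5 155 and 145 against 103 and 111 CPM (log2 0.50 ± 0.087, adjusted p = 0.00337). In all 4 both 12 h libraries were above both DMSO libraries, and the shallow library gave the higher value for MT-CO1 and MT-CYB and the lower one for the other 2. MT-ND5 lost its call without replicate 1 at 12 h (0.45, adjusted p = 0.0546). Mitochondrial genes took 0.251% and 0.291% of counts at 12 h and 0.163% and 0.215% in DMSO, and the part of RNA quality in this was not tested.

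In the integrated stress and unfolded protein response 3 of 47 genes rose (6.38%) and 4 fell (8.51%), against 3.39% and 7.97% of all genes tested. SLC7A5, a large neutral amino acid transporter, had 216 and 222 CPM at 12 h, against 164 and 133 CPM in DMSO (log2 0.56 ± 0.095, adjusted p = 0.00316), and held with GC correction (0.41, adjusted p = 0.0275). ATF4, the transcription factor of the response, had 479 and 440.3 CPM at 12 h, against 374 and 370.1 CPM in DMSO (log2 0.31 ± 0.065, adjusted p = 0.00939), and SLC7A1 78.6 and 69.3 against 53 and 55.8 CPM (log2 0.46 ± 0.10, adjusted p = 0.0124), while SEL1L of ER-associated degradation had 52.8 and 63 against 85 and 78.7 CPM (log2 -0.53 ± 0.12, adjusted p = 0.013). None of these 3 held with GC correction or without replicate 1 at 12 h. Of 20 cytosolic tRNA synthetases, 2 fell, RARS1 (-0.40) among them, and YARS1 (0.44) rose. Neither RARS1 nor YARS1 was called with GC correction, and RARS1 was called in every leave-one-out fit while YARS1 lost its call in 3 of them. In the heat shock list 5 of 24 rose (20.8%, against 3.39% of all genes tested) and 4 fell (16.7%, against 7.97%). With GC correction 1 was raised. The HSP90 co-chaperones FKBP4 (453 and 428 against 362 and 349 CPM, log2 0.31 ± 0.064, adjusted p = 0.00825) and AHSA1 (329 and 319 against 261 and 263 CPM, log2 0.31 ± 0.065, adjusted p = 0.00939) were higher, and HSPA4L (71.6 and 63.3 against 98.2 and 100 CPM, log2 -0.53 ± 0.095, adjusted p = 0.00382) and DNAJB4 (28.6 and 26.6 against 43.7 and 41.6 CPM, log2 -0.61 ± 0.12, adjusted p = 0.00589) were lower. None of the 4 was called with GC correction, and HSPA4L alone kept its call without replicate 1 at 12 h.

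Among 28 immediate early genes 4 rose (14.3%, against 3.39% of all genes tested), and 1 with GC correction. ZFP36, which promotes decay of mRNAs with AU-rich elements, had 14.7 and 12.6 CPM at 12 h, against 6.25 and 6.52 CPM in DMSO (log2 1.12 ± 0.21, adjusted p = 0.00503), and held with GC correction (0.97, adjusted p = 0.0274) but not in the shallow 12 h library alone (0.98, adjusted p = 0.0771). NR4A1, CCN1 and MYC rose by 0.74, 0.77 and 0.23 on the log2 scale, none holding with GC correction, and each was lost in 2 or 3 leave-one-out fits. Of 22 ERK feedback genes 2 rose (9.09%, against 3.39%). EPHA2 had 219 and 235 CPM at 12 h, against 174 and 168 CPM in DMSO (log2 0.40 ± 0.072, adjusted p = 0.00389) and DUSP2 had 17.9 and 17.5 against 12.4 and 11.2 CPM (log2 0.59 ± 0.16, adjusted p = 0.0308), and neither held with GC correction. CCN1, EPHA2, AREG and AMOTL2 were the named genes already called at 3 h, at 1.403, 0.62, 0.78 and 0.93. At 12 h they stood at 0.77, 0.40, 0.28 and 0.59, and the 12 h minus 3 h contrast passed for AREG alone (-0.51, adjusted p = 0.0027).

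Of 15 genes of the EGF receptor family and its ligands, 1 rose (6.67%, against 3.39% of all genes tested) and 2 fell (13.3%, against 7.97%). The other 12 were not called. With GC correction 1 rose and 0 fell. AREG, amphiregulin, had 146 and 156 CPM at 12 h, against 126 and 122 CPM in DMSO (log2 0.28 ± 0.076, adjusted p = 0.0359). EREG, epiregulin, had 409 and 371 CPM at 12 h, against 532 and 494 CPM in DMSO (log2 -0.39 ± 0.069, adjusted p = 0.00365). EREG is GC-poor at 36.1%, and its value with GC correction was 0.024 (adjusted p = 0.909), while AREG held (0.31, adjusted p = 0.0438) but lost its call in 3 leave-one-out fits. BTC, betacellulin, had 4.78 and 3.56 against 7.86 and 8.38 CPM (log2 -0.88 ± 0.26, adjusted p = 0.0445), and lost its call in all 4. Among 21 targets of YAP and TEAD, 5 rose (23.8%, against 3.39% of all genes tested) and 2 fell (9.52%, against 7.97%). With GC correction 1 rose and 1 fell. NT5E, the ectonucleotidase CD73, had 36 and 35.9 CPM at 12 h, against 83 and 78.6 CPM in DMSO (log2 -1.17 ± 0.11, adjusted p = 0.000229). It fell to the same level in both 12 h libraries, held with GC correction (-1.13, adjusted p = 0.00191) and in every leave-one-out fit, and stood at 83.1 and 71.3 CPM at 3 h. AMOTL2, a YAP-binding angiomotin, had 65.7 and 60 CPM at 12 h, against 42.8 and 41.7 CPM in DMSO (log2 0.59 ± 0.10, adjusted p = 0.00367), and held with GC correction (0.43, adjusted p = 0.0377) but not in the shallow 12 h library alone (0.50, adjusted p = 0.0752). WWC1 (0.36) and LATS2 (0.72), upstream members of the Hippo pathway, rose without holding in either.

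In the lists of Wnt, BMP and TGF-beta targets and of epithelial-mesenchymal transition, no more than 2 genes passed in either direction. Raised shares were 10.5% for Wnt, 8.70% for BMP and TGF-beta and 0% for the transition list, against 3.39% of all genes tested. Lowered shares were 0%, 4.35% and 6.67% in the same order, against 7.97%. BMP4 had 77.7 and 101 CPM at 12 h, against 59.4 and 59.2 CPM in DMSO (log2 0.55 ± 0.12, adjusted p = 0.0122), TGFBR2 45.3 and 46.6 against 35 and 33.4 CPM (log2 0.42 ± 0.11, adjusted p = 0.0272) and SKIL, a SMAD corepressor, 19.6 and 16.4 against 27.5 and 29.9 CPM (log2 -0.63 ± 0.14, adjusted p = 0.015). The integrins ITGAV (93.4 and 87.7 against 129 and 131 CPM, log2 -0.51 ± 0.082, adjusted p = 0.00217) and ITGB1 (926 and 884 against 1088 and 1142 CPM, log2 -0.30 ± 0.055, adjusted p = 0.00433) fell. None of these 5 was called with GC correction, and TGFBR2 and SKIL also lost their calls in 3 leave-one-out fits each.

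Of 31 interferon-stimulated and RNA-sensing genes 2 rose (6.45%, against 3.39% of all genes tested) and 1 fell (3.23%, against 7.97%). MAVS, the mitochondrial adaptor of RNA sensing, had 148 and 145 CPM at 12 h, against 111 and 106 CPM in DMSO (log2 0.43 ± 0.079, adjusted p = 0.00429), and held with GC correction (0.32, adjusted p = 0.039), although without replicate 1 at 12 h it missed the threshold (0.42, adjusted p = 0.0511). IFITM3 had 53.7 and 53.1 against 32 and 38.1 CPM (log2 0.61 ± 0.12, adjusted p = 0.00598) and IFIT5 54.9 and 52.3 against 73.9 and 66.1 CPM (log2 -0.37 ± 0.099, adjusted p = 0.0301), and both missed it there and with GC correction. Among 25 NF-kB and inflammatory targets, 2 fell (8.0%, against 7.97% of all genes tested) and 0 rose (against 3.39%). BIRC2, which encodes the ubiquitin ligase cIAP1, had 54.9 and 62.7 CPM at 12 h, against 91.8 and 103 CPM in DMSO (log2 -0.76 ± 0.10, adjusted p = 0.000966). IL18 had 91 and 81.1 against 123 and 135 CPM (log2 -0.56 ± 0.097, adjusted p = 0.00333). Both fell in every leave-one-out fit, and BIRC2 held with GC correction (-0.43, adjusted p = 0.0356).

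Most genes of translation and ribosome assembly were not called, and the few called went in both directions. Of 76 cytosolic ribosomal protein genes, 4 rose (5.26%, against 3.39% of all genes tested) and 5 fell (6.58%, against 7.97%), with a median of -0.0024. With GC correction 5 rose and 7 fell, against 1.83% and 2.34% of all genes tested. RPL9 had 943 and 927 CPM at 12 h, against 1224 and 1219.7 CPM in DMSO (log2 -0.39 ± 0.05, adjusted p = 0.000774) and RPS3A 1783 and 1735 against 2104 and 2108 CPM (log2 -0.26 ± 0.047, adjusted p = 0.00421), while RPL19 had 1852 and 1698 against 1449 and 1397 CPM (log2 0.32 ± 0.054, adjusted p = 0.003) and RPS15 365 and 382 against 290.2 and 286 CPM (log2 0.37 ± 0.065, adjusted p = 0.00353). RPL19 was the only one of these 4 called with GC correction, and many ribosomal protein genes have processed copies elsewhere, so small differences are uncertain. In the list of MYC targets and ribosome biogenesis 4 of 36 rose (11.1%, against 3.39% of all genes tested) and 2 fell (5.56%, against 7.97%). With GC correction 1 rose and 1 fell. NCL, nucleolin, had 718 and 703 CPM at 12 h, against 473 and 518 CPM in DMSO (log2 0.52 ± 0.063, adjusted p = 0.000555), and held with GC correction (0.50, adjusted p = 0.00254) and in each leave-one-out fit. POLR1A of RNA polymerase I had 143 and 142 against 113 and 94.1 CPM (log2 0.46 ± 0.099, adjusted p = 0.0107), RRN3, its initiation factor, 191 and 168 against 238 and 250.3 CPM (log2 -0.43 ± 0.081, adjusted p = 0.00544), and NPM1, nucleophosmin, 2695 and 2585 against 2954 and 2939 CPM (log2 -0.16 ± 0.042, adjusted p = 0.0301), none called with GC correction. NPM1 lost its call in 3 leave-one-out fits, and POLR1A without replicate 1 at 12 h.

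**Figure D4:**
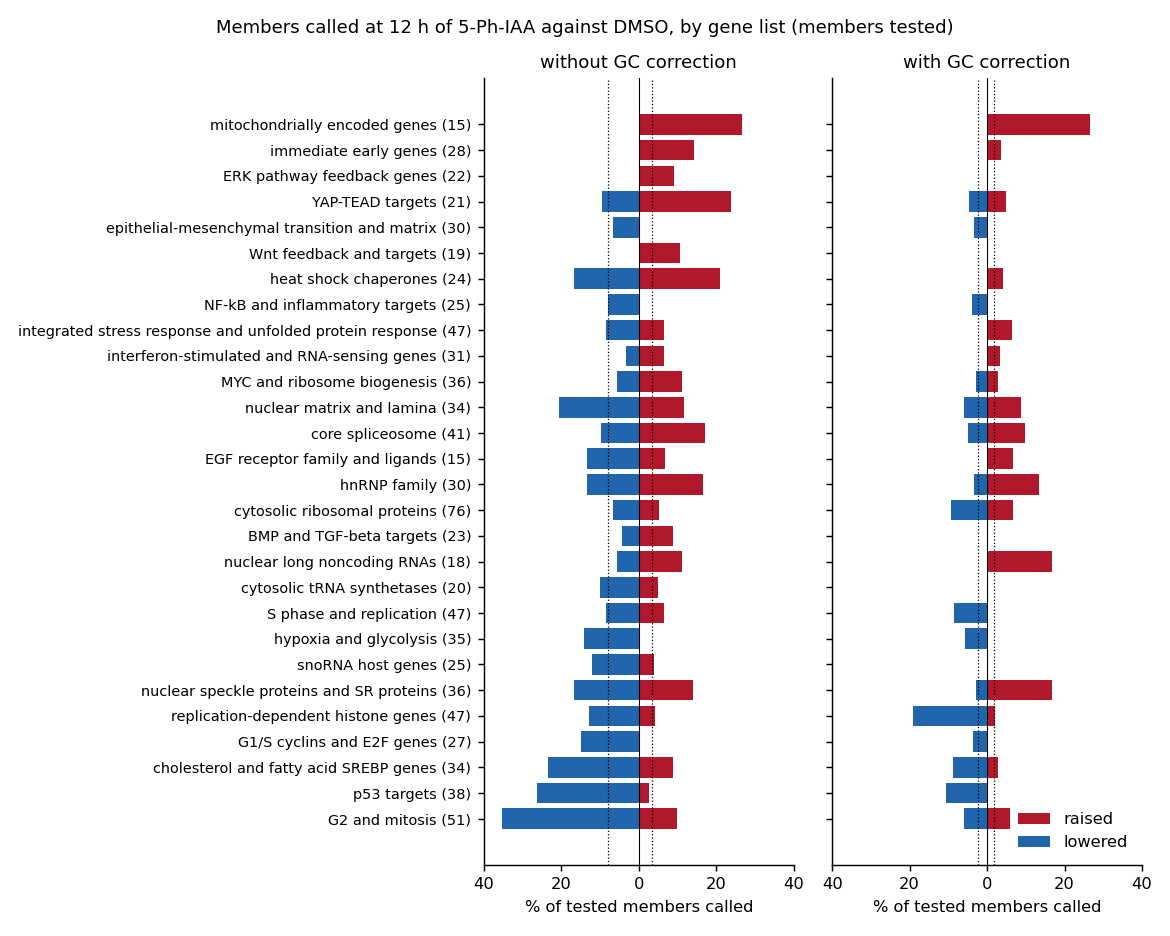
Share of tested members raised (red, to the right) and lowered (blue, to the left) at 12 h against DMSO for 28 gene lists, with the number tested in brackets, without (left) and with (right) the GC correction. Dotted lines mark the shares over all genes tested, 3.39% raised and 7.97% lowered on the left, and 1.83% and 2.34% on the right. The bar of lowered G2 and mitosis genes is the longest on the left and short on the right, while the mitochondrially encoded genes keep the same bar.

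The tables also give, for each gene, the mean length of its transcripts weighted by their estimated abundance, which shifts when cells use longer or shorter transcripts. Of 7776 genes with a mean of at least 16 CPM, 79 became shorter (1.02%) and 5 longer (0.0643%) at 12 h by limma, and 67.6% of all tested genes had a shorter mean length, with a median log2 difference of -0.047. DDX3X, an RNA helicase, had a mean length of 2249 and 2162 bases at 12 h, against 3690 and 3729 bases in DMSO (log2 -0.75 ± 0.039, adjusted p = 0.0301), while its count did not pass the test. SRPK1, a kinase of SR proteins, had 2020.2 and 2161 bases at 12 h, against 3520.1 and 3737 bases in DMSO (log2 -0.80 ± 0.049, adjusted p = 0.0315). CBLL1, VPS35L, ARHGAP42, ACAP2 and DPY19L4 were shorter by 0.68 to 0.86 on the log2 scale, and RGPD5 by 1.45, which is uncertain for the reason given above. SPEN, a transcriptional corepressor, went the other way with 9781 and 9723 bases at 12 h, against 5917 and 5707 bases in DMSO (log2 0.75 ± 0.026, adjusted p = 0.0301). BPTF, a subunit of the NURF chromatin remodeller, had 8413 and 8079 bases at 12 h, against 5506 and 5143 bases in DMSO (log2 0.63 ± 0.046, adjusted p = 0.0382). GBF1, an exchange factor of Golgi traffic, had 3892 and 4080.0 bases at 12 h, against 2693 and 2515 bases in DMSO, and was already at 4253 and 4378 bases at 3 h. These 3 and DEXI (0.59 on the log2 scale) were also raised in count, and the other longer gene, RPS3, shifted by 0.061. These genes were named among called genes whose 2 groups did not overlap, so their lack of overlap follows from that choice. Of the 79 shortened genes, 39 were also lowered in count (49.4%) and 2 were raised, where 16.4% of the 7776 genes were lowered and 6.33% raised. These calls depend on the fit: 0 genes passed with the 12 h and DMSO libraries alone, or with the replicate number as a block, where 1288 and 1432 genes had an unadjusted p under 0.05 in limma. With any 1 of the 4 libraries left out, 0 genes passed the adjusted threshold in limma, while 1041 to 1772 genes had an unadjusted p under 0.05 (888 to 1533 of them shorter), against 1549 with all libraries. Transcript shares within a gene are estimates, and the part of fragment length or RNA quality in them was not tested.

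**Figure D5:**
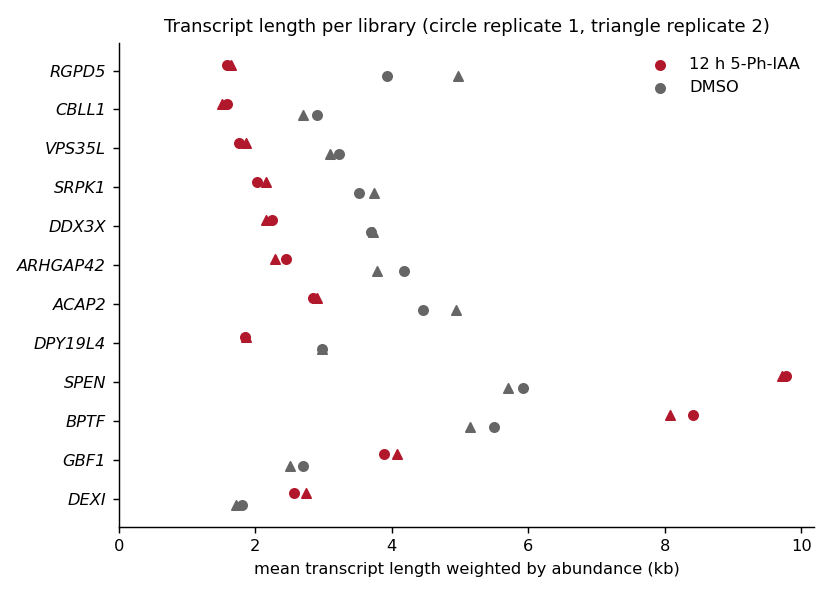
Mean transcript length weighted by abundance (horizontal axis, kb, starting at 0) of 12 named genes in each 12 h (red) and DMSO (grey) library, with circles for replicate 1 and triangles for replicate 2. The upper 8 genes were shorter and the lower 4 longer at 12 h, and pairs that do not overlap were a condition for naming them.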

How the data were processed

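The authors deposited 1 RSEM gene table per library, with expected counts, TPM, FPKM and a transcript length per gene, per the file headers; FPKM was not used. The submitters' processing notes name STAR 2.7.10b, RSEM, DESeq2 1.48.1 and hg38 (GRCh38), without roles, and the annotation release and the counting's strand setting are not given in the sources used here. Per the labels' protocols, Trizol total RNA went into stranded, rRNA-depleted libraries. No molecular identifiers are described, so counts are not of independent molecules. Depth of the 6 time-course libraries ran from 3.54 to 35.1 M (1e6) deposited expected counts, and 78686 identifiers were listed. Symbols were found for 42165 of them (53.6%), and GENCODE 29 positions, biotypes and GC content for 57288 (72.8%).

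Expected counts were rounded and fitted with edgeR 4.0.16 (R 4.3.3): 6 time-course libraries, 1 coefficient per group, TMM, filterByExpr (at least 10 counts, total 15), quasi-likelihood F tests, two-sided, Benjamini-Hochberg over all 19049 genes, threshold 0.05. The biological coefficient of variation was 0.176 with 3 residual degrees of freedom. Where a library was left out, the lone library of its group was taken to vary like the other groups. The SE is the log2 fold change divided by the square root of F. The GC correction fits log2 expression against transcript GC in each library by lowess (span 0.3) and removes the fitted line, known for 89.6% of tested genes. Transcript length (log2 of the deposited length) was tested with limma 3.58.1 at a mean of at least 16 CPM. The deposited TPM served only for marker levels. The edgeR and limma tests, but not the GC correction, were tested on simulated data with known changes.

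The comparison, the 30 gene lists and the naming rule were chosen with earlier results of these data known. Named are HNRNPU, the 15 raised and 15 lowered genes with the largest change among called genes that have a symbol, average at least 1 on the log2 CPM scale and do not overlap between groups, up to 4 called members per list by p (or the 2 most expressed), and up to 8 genes per direction for length. The length genes were also taken only from called genes whose groups do not overlap. LMNA, LMNB1, SAFB, SAFB2, SON, SRRM1, MALAT1 and CDKN1A were added after their values were seen, and a few items are not reported here. Alternatives were DESeq2 1.42.0, RLE factors, other filters, thinning, other sets of libraries, a replicate block and the GC correction, and, chosen after seeing the data, genes with whole expected counts. Replicate numbers did not pair libraries, with correlations of deviations from -0.011 to 0.0025.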

Additional observations from a re-analysis of the deposited data

Results flagged for a closer look

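The contrast of 12 h with 3 h of 5-Ph-IAA, fitted in edgeR, passed for 1551 genes, and for 85 of the 131 named genes. In 22 of these 85 the 12 h and 3 h differences from DMSO also had opposite signs, and they are listed here with the 12 h minus 3 h difference on the log2 scale. Both differences share the DMSO libraries, so only the contrast itself is tested. The 3 h difference from DMSO did not pass the test in any of the 22, so a reversal between 3 h and 12 h is not shown.

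Genes that stood above DMSO at 12 h and below it at 3 h included SRRM2, the speckle scaffold (12 h minus 3 h of 1.22), NEAT1, the paraspeckle RNA (1.07), and ALPK3, a kinase gene at a few CPM (2.01). The mitochondrial genes MT-CO1 (0.70) and MT-ND5 (0.58), IFITM3 (0.63), MAVS (0.62), FASN (0.62), SNRNP200 (0.43) and DANCR (0.36) were of the same kind. The 3 h values themselves were small for most of them, such as -0.011 for SNRNP200 and -0.024 for IFITM3.

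Genes that stood below DMSO at 12 h and above it at 3 h included the growth factors EREG (-0.54) and BTC (-1.09), the cell cycle genes CCNE2 (-0.65) and RFC3 (-0.44), and MDM2 (-0.48), the ubiquitin ligase of p53. TMPO (-0.51), RARS1 (-0.41), IFIT5 (-0.51), IL18 (-0.57) and NPM1 (-0.18) were alike in sign. Here too many of the 3 h values were near 0, such as 0.0052 for RARS1, 0.0103 for IL18 and 0.0128 for TMPO. RGPD5 (-3.19) and SMG1P3 (-4.18) belong to families of near-identical copies, and their values are uncertain.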

How the results depend on the processing

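Counts of genes called at 12 h against DMSO (645 raised, 1518 lowered) moved by over 1.5 times in the following settings. The GC correction gave 349 raised and 445 lowered, a filter at a mean of at least 5 CPM gave 1206 raised, protein-coding genes only gave 1055 raised, and thinning to the shallowest library gave 1008 lowered. With 1 library left out, raised genes ranged from 206 to 822 and lowered genes from 647 to 1280. With the replicate number as a block the counts moved less than that, to 798 raised and 1691 lowered. Under the GC correction 76 of the 2163 called genes changed direction, EREG among them at 0.024. In the other settings 0 did, over the called genes that had a value there (1308 with whole expected counts, at least 2035 elsewhere). Of the 129 named calls, 52 held under the GC correction, 62 without replicate 1 at 12 h and 105 of the 109 to which DESeq2 gave an adjusted p.

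Transcript length calls (5 longer, 79 shorter) were 10 longer and 236 shorter at a mean of at least 64 CPM. They were 0 longer and 0 shorter in the compared groups only, in the replicate block, and, from 0 to 0 in each direction, with 1 library left out, although 1041 to 1772 genes then had an unadjusted p under 0.05 in limma. The cause was not tested. The shallow 12 h library limits every gene of low count.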
